A study of Mus musculus with 8 samples.

Results

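The sequences described here are the small RNAs of 26 to 29 nt with a 5′-U that were first counted at E13.5. They were selected on 2 time points: at least 10 counts in both E13.5 libraries and 0 counts in both E12.5 libraries. The rule found 258 sequences among 2137470 distinct sequences in all 8 libraries, and among 578316 distinct 5′-U sequences of 26 to 29 nt. Counts at E12.5 and E13.5 therefore chose the members and are given only as a description. The E15.5 and mPGCLC libraries took no part in the choice.

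The study sequenced small RNAs of male mouse primordial germ cells (mPGCs) and of primordial germ cell-like cells (mPGCLCs) made in culture, to ask whether the cultured cells hold piRNAs. The 8 libraries form 4 groups of 2, which are E12.5 mPGCs, E13.5 mPGCs, E15.5 mPGCs and day 6 (D6) mPGCLCs of the SGET line. The labels give the mPGCs as GOF18 origin, strain C57BL/6J and sorted on SSEA1 and CD61. In the paper the background is mixed FVB/C57BL/6J and the sort was on EGFP. Each mPGC replicate was a pool of embryos from a separate litter. SGET mPGCLCs (B6CBA/129) came from 1 male mESC line that carries Stella-GFP and Esg1-tdTomato reporters, were sorted as Stella-GFP positive and Esg1-tdTomato negative from embryoid bodies, and had no gonadal surroundings. Nothing states that the SGET replicates were separate differentiations, so their spread may be technical.

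piRNAs are small RNAs bound by PIWI proteins, which in the germline silence transposable elements. Long single-stranded precursors are cut so that most piRNAs begin with U, and the PIWI protein protects a fragment a little longer than a miRNA. In fetal male germ cells the PIWI proteins are Mili and Miwi2. When a PIWI protein cuts a target, the new piRNA pairs with the first 10 bases of the guide and so tends to carry an A at its position 10 (the ping-pong cycle). Fragments of ribosomal RNA, mRNA or other abundant RNAs can have the same length and first base, so the rule alone does not make a sequence a piRNA.

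The 6 members with the highest mean share of all reads at E13.5 come first, as the leading examples of a widely spread set. The letters are as deposited, with T for U, and the capitals mark base 1, which the rule fixed as T, and base 10.
Rpl5-matching: TagaaggggAtatgatcgtctgtgcagc
unmatched 1: TactgttagAggattaaaagggtgga
ribosomal locus, 27 nt: TaacgaacgAgactctggcatgctaac
Rplp1-matching: TgcacgacgAcgaggtgacggtcacgg
unmatched 2: TagaaaagcGagaagtgggtccccaaa
unmatched 3: TaataaaggTggaggagttagaggtc

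Unmatched 1 was also among the 6 members with the largest E15.5 share. The other five of those show which early sequences were abundant 2 days later, and 3 of them lie in the mRNA of Noct.
Noct 1: TatcagaagTaaagcggagagagagagt
Noct 2: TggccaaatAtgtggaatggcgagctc
unmatched 4: TgctggcgaGacagtagcacgggcgg
Noct 3: TcagaagtaAagcggagagagagagt
Mfsd4a antisense: TaaaatggaTttgagcagctgagtgttc

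The only members with 10 or more counts in a SGET mPGCLC library were the following 3.
ribosomal locus, 26 nt: TacacaccgCccgtcgctactaccga
unmatched 5: TaagcgttgGattgttcacccactaatag
5S rRNA: TcgtctgatCtcggaagctaagcagg

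The files held between 7447873 and 26552524 counts per library. The 5′-U reads of 26 to 29 nt took 1.26 and 1.69% of all reads (E12.5), then 4.88 and 7.92% (E13.5) and 49.9 and 50.9% (E15.5), against 1.55 and 1.12% in the SGET libraries. Replicates shared few of these sequences: of those with 10 or more counts in at least 1 library of a group, 2.01% reached 10 in both at E13.5 and 1.10% in both at E15.5. The 10 of 11 germ cell and pluripotency miRNA genes with a sequence in the reference took 3.72 and 5.77% of reads (E12.5), 2.99 and 4.31% (E13.5), 0.301 and 0.240% (E15.5), and 5.51 and 8.75% (SGET). The 4 blood miRNA genes stayed at or under 0.00259% in every library, and Mir126a of endothelium at or under 0.00694%. Of the 3 gonadal soma genes only Mir202 had a sequence, and it ran from 0.0149 to 0.0430% at E12.5 and E13.5, was 0.00557 and 0.00583% at E15.5 and 0 in both SGET libraries. Whether such other cells contribute to the members was not tested. Confidence intervals are 95% Wilson intervals and, like the limits from 3 counts, cover counting error only, because PCR copies were not removed.

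At E13.5 the members were well above the count minimum. Their counts ran from 10 to 986 with a median of 203 in replicate 1, and from 15 to 910 with a median of 93.5 in replicate 2. Only 2 members had a lower count of 10 to 14, and just outside the rule lay 6 sequences with a lower count of 5 to 9. A further 31 sequences met the E13.5 minimum but had a single count in an E12.5 library. All members together held 57885 reads (0.481% of the total, interval 0.477 to 0.485) in replicate 1 and 36854 reads (0.187%, 0.185 to 0.189) in replicate 2. This was 9.85 and 2.36% of the 5′-U reads of 26 to 29 nt. The reads were spread widely, with 6.37 and 8.78% of them in the 5 most abundant members. Member levels in the 2 E13.5 libraries were nearly unrelated, with a Spearman rho of 0.089 across the 258 members, which share their library and are no replicates.

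At E15.5 a majority of the members remained in replicate 1 and a minority in replicate 2. In replicate 1, 157 members were counted and 153 reached 10 counts (59.3%, interval 53.2 to 65.1). In replicate 2, 74 were counted and 47 reached 10 (18.2%, 13.98 to 23.4). Both libraries had counts of 58 members (22.5%), and 10 or more counts of 41 (15.9%). As background, all 18403 5′-U sequences of 26 to 29 nt with 10 or more counts in at least 1 E13.5 library and 0 at E12.5 were followed in the same way. Of these, 11.4% reached 10 counts in E15.5 replicate 1, 1.92% in replicate 2 and 1.43% in both. Sequences seen in 1 E13.5 library and at 0 in the other reached 10 counts in an E15.5 library in 9.61% (replicate 1 only, 2144 sequences) and 11.2% (replicate 2 only, 15951 sequences), against 61.6% of members. Members are counted in both E13.5 libraries and these sequences in 1, so the sets also differ in how widely a sequence was sampled, and no test was made across sequences.

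The 2 E15.5 libraries differed in how counts were spread over sequences. Replicate 1 had 155954 distinct 5′-U sequences of 26 to 29 nt with 10 or more counts, at a median count of 32, and replicate 2 had 16234 at a median of 647. The members followed this pattern. Members that reached 10 counts had a median of 101 counts in replicate 1 and 1060 in replicate 2, and 25 members had 1000 or more counts in replicate 2 against 1 in replicate 1. The part of this difference in the lower number of members seen in replicate 2 was not tested. With every library thinned to the smallest total, 18.4% of the members found were counted in both E15.5 libraries.

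In summed share the members were nearly equal in the E15.5 libraries, with 27453 reads (0.202%, interval 0.200 to 0.204) in replicate 1 and 60159 reads (0.227%, 0.225 to 0.228) in replicate 2. The mean of 0.214% ± 0.0175 (SD, n = 2) lay between the 2 values at E13.5, whose mean was 0.334% ± 0.208 (SD, n = 2). Over the same interval the 5′-U reads of 26 to 29 nt as a whole grew, so that the members were 0.405 and 0.445% of them at E15.5. The 5 most abundant members held 17.1 and 30.3% of the member reads at E15.5. The rule asks every member for 10 or more counts at E13.5 but not at E15.5. A more even spread at E13.5 is thus built in, and no change over time is read from it. By tertile of mean E13.5 share, a value that the rule used, 43, 47 and 63 of 86 members (lowest, middle and highest) reached 10 counts in E15.5 replicate 1, and 12, 17 and 18 of 86 in replicate 2. Across the 258 members, which share their libraries, Spearman's rho with E15.5 replicate 1 was 0.0959 for E13.5 replicate 1 and 0.353 for E13.5 replicate 2. With E15.5 replicate 2 these were 0.0946 and 0.234.

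Across the 258 members, the share at E15.5 was below E13.5 with no overlap between the groups in 152, above it with no overlap in 16, and overlapping in 90. In the background set of 18403 sequences these were 0.935% below and 0.886% above, and since E13.5 counts chose both sets nothing is read from them. The members that follow were picked for their E15.5 share.

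Unmatched 1 had the highest mean share of the members at E15.5, although Noct 1 was higher in replicate 2. Unmatched 1 had 649 and 466 counts at E13.5, 1520 and 3817 at E15.5. It was at 0 in the E12.5 libraries, as the rule asks, and in the SGET libraries. Its share was 0.0128% ± 0.00226 (SD, n = 2) at E15.5 and 0.00388% ± 0.00214 (SD, n = 2) at E13.5, and the groups did not overlap. The Noct mRNA, which encodes the phosphatase nocturnin, held the next. Noct 1 had 257 and 607 counts at E13.5 and 282 and 5078 at E15.5, so that its E15.5 replicates were far apart and its lower one overlapped E13.5. Noct 3 is the same run of bases without the first 2 and had 90 and 296 counts at E13.5 and 876 and 2030 at E15.5. Both lie in the 5′UTR of Noct on the plus strand of GRCm38, Noct 1 at chr3:51240775-51240802 and Noct 3 at chr3:51240777-51240802. Noct 2 lies downstream in the same 5′UTR, at chr3:51241474-51241500, and also matched a transcript on chromosome 9. Its counts were 234 and 172 at E13.5, and 759 and 3808 at E15.5, with no overlap in share between the groups. Unmatched 4 had 136 and 100 counts at E13.5 against 753 and 3068 at E15.5. The Mfsd4a antisense member, at chr1:132028281-132028308 on the strand opposite to the 3′UTR of that gene of the transporter superfamily, had 218 and 211 counts at E13.5 and 114 and 2423 at E15.5, so its groups overlapped.

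Of the other members that led at E13.5, 1 was absent at E15.5. The Rplp1-matching sequence, which spans 2 exons in the coding sequence of a ribosomal stalk protein (chr9:61913962-61914382, minus strand), had 764 and 47 counts at E13.5 and 0 in both E15.5 libraries. A count of 0 allows up to 2.21e-05 and 1.13e-05% of the reads of those libraries. The authors' alignment did not split reads across introns, so where the Rplp1-matching sequence was placed in the genome is not known. The Rpl5-matching sequence, from the coding sequence of a large-subunit ribosomal protein (chr5:107903285-107903312, plus strand, and 5 further genes), had 986 and 621 counts at E13.5, 57 and 706 at E15.5. Its share was lower in both E15.5 libraries than in both E13.5 libraries. Unmatched 2 had 529 and 341 counts at E13.5 and 545 and 912 at E15.5, and its shares were 0.00306% ± 0.00188 and 0.00372% ± 0.000405 (SD, n = 2 each). Unmatched 3 had 656 and 46 counts at E13.5 and 195 and 1745 at E15.5, and the spread within each group was as large as its mean share or nearly so.

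In SGET mPGCLCs the members were almost absent. Replicate 1 counted 9 members and replicate 2 counted 3, with 11 in either library (4.26%) and 247 at 0 in both. In replicate 1, 3 members reached 10 counts (1.16%, interval 0.396 to 3.36), and none did in replicate 2 (interval up to 1.47%). In the background set of 18403 sequences, 0.245% reached 10 counts in a SGET library. The members held 724 reads (0.00709%, interval 0.00659 to 0.00763) in replicate 1 and 3 reads (3.15e-05%, 1.07e-05 to 9.26e-05) in replicate 2. The 3 printed members made up 718 of the 724 reads, and the remaining 255 members had 6 and 2 reads in the 2 libraries. The 26-nt sequence of the ribosomal locus had 554 counts in replicate 1 and 0 in replicate 2. It had 170 and 83 at E13.5, and 0 and 1 at E15.5. Unmatched 5 had 100 and 1 counts in SGET, 398 and 46 at E13.5, and 29 and 5 at E15.5. Its label means only that no annotated transcript matched, and an origin in rRNA or tRNA was not tested. The 5S rRNA sequence had 64 and 0 counts in SGET, 292 and 48 at E13.5, and 0 and 330 at E15.5. None of the other 8 counted members had more than 1 count in a library, and among them were an Abl2-matching and an Rpl10a-matching sequence.

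E15.5 and SGET mPGCLCs were compared sequence by sequence with edgeR's quasi-likelihood test, in which 110 of 11115 sequences tested (0.99%) passed an adjusted p of 0.05 as higher and 495 as lower. Of the 258 members, 42 passed the filter on low counts, 5 were called higher and none lower, and 30 had an unadjusted p under 0.05. A member at or near 0 in SGET could pass only through E15.5, so that the direction and the number of calls are set by the filter and support nothing. The called members were unmatched 1 (adjusted p = 0.0116), Noct 1 (0.0242), Noct 2 (0.0299), unmatched 4 (0.0478) and 1 sequence outside the rule for naming, TtgtttcagCtgctgcaggtctccctc (0.0151), given here after its values were seen. The last had 59 and 25 counts at E15.5 and 0 in SGET. With 3 counts over both SGET libraries (1.52e-05%) as the floor, the lower E15.5 library was at least 735-fold higher for unmatched 1, at least 136-fold for Noct 1, 367-fold for Noct 2, 364-fold for unmatched 4 and 6.19-fold for the last. The other E15.5 library gave at least 946-fold, 1258-fold, 943-fold, 760-fold and 28.5-fold, so that for all but unmatched 1 a single library sets much of the size. Scaling by TMM or leaving out any of the 4 libraries left 0 members called and DESeq2 called 40, so no call is firm. In a fit with a replicate block, 0 members were called (adjusted p of 0.587 for unmatched 1).

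Sequences with a count at E12.5 are set beside the members as a description, since the E12.5 counts of the rule separate the sets. The 129 5′-U sequences of the same lengths with 10 or more counts in both E13.5 libraries and a count at E12.5 reached 10 in a SGET library in 41.9%, against 1.16% of members. At E15.5, 60.5% of them against 61.6% of members had 10 or more counts in at least 1 library, 22.5 against 15.9% had this in both, and 50.4 against 22.5% were counted in both. In summed share this set held 0.768% ± 0.199 (E13.5), 0.145% ± 0.0308 (E15.5) and 0.458% ± 0.0736 (SGET) (SD, n = 2 each). No test was made. The 41 sequences that met the counts of the rule with another first base reached 10 counts in an E15.5 library in 24.4% and in a SGET library in 12.2%.

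Lengths of the members were 26 nt in 73, 27 nt in 85, 28 nt in 73 and 29 nt in 27. The mean of 27.2 nt was close to the 27.3 nt of a later set, the 1703 5′-U sequences of 26 to 29 nt with 10 or more counts in both E15.5 libraries and 0 at E12.5. Counts at E13.5 did not enter its choice, so it includes the 41 members with 10 or more in both E15.5 libraries. Of its sequences, 62 and 243 reached 10 counts in E13.5 replicates 1 and 2. Members of each length were found at E15.5, with 43 of 73, 57 of 85, 40 of 73 and 13 of 27 at 10 or more counts in replicate 1, from 26 to 29 nt. In replicate 2 these were only 17, 14, 13 and 3. Median GC content was 46.4% in members and 48.2% in the later set.

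The members had 236 different 5′ ends, taken as the first 20 bases, of which 214 belonged to 1 member and 22 to a pair that differed only at the 3′ end. Such a pair is the 27-nt sequence of the ribosomal locus and TaacgaacgAgactctggcatgctaa, which lacks its last base. The longer had 577 and 429 counts at E13.5 and 637 and 0 at E15.5. The shorter had 181 and 64 at E13.5 and 74 and 0 at E15.5. When any read of 24 to 33 nt with a member's first 20 bases was counted, 183 and 88 of the 236 ends reached 10 counts at E15.5. At E12.5 this held for 10 and 19 ends, and in SGET for 11 and 5. Some 5′ ends of the members were thus present before E13.5 in other sequences.

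Beyond the fixed T at position 1, position 2 was A in 45.7% and G in 36.8% of members and C in 6.20%. In the later set these were 38.8, 36.5 and 10.2%, and in the sequences already present at E12.5 they were 14.7, 31.0 and 17.1%. Position 5 was A in 44.2% of members and 42.5% of the later set. At position 10, the position that ping-pong partners share, A was found in 25.6% of members, within the range of 21.7 to 44.2% at the other positions from 5 to 20. It was 35.6% in the later set and 11.6% in the sequences already present at E12.5. Those 129 sequences had only 84 different 5′ ends, so length variants of the same end enter their percents repeatedly. In 35 of them the highest E12.5 count was from 1 to 9. Of the 41 members that kept 10 or more counts in both E15.5 libraries, 12 (29.3%) had A there, and of the 99 that had under 10 in both, 23 (23.2%).

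Complementary partners were sought as 5′ ends of reads of 24 to 33 nt with 10 or more counts, whose first 10 bases pair with 10 bases of a member. Left out were the members that match ribosomal RNA, which left 242. Among E13.5 reads, 12 members had a partner with a 10-base overlap, against 9 to 12 at overlaps of 11 to 20 bases. Among E15.5 reads these were 69 (28.5%) against 42 to 67. In the later set of 1693 such sequences, the 10-base overlap was found for 840 (49.6%) among E15.5 reads, against 408 to 533 at the other overlaps. Among E13.5 reads it was found for 178 of that set, against 70 to 119. By their count minima, the later set lies within the E15.5 pool and the members within the E13.5 pool. The E13.5 pool held 43454 sequences and the E15.5 pool 282635. For the members the 10-base overlap therefore stood at the top of, but close to, the range of the other overlaps.

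Exact matches to GENCODE M21 transcripts (GRCm38) were found for 138 of the 258 members (53.5%). Of these, 111 lay on the transcript's own strand only, 14 on the opposite strand only and 13 on both. Among the 14, 6 matched only CT010467.1, an rRNA-annotated gene whose strand was not checked. The remaining 120 members matched none, and their positions in the genome and in transposable elements were not analysed here. No nuclear tRNA annotation was used either. Unmatched members can therefore include fragments of tRNA, or of rRNA that the transcript set lacks. In the later set 31.1% matched, with 19.2% sense only and 8.98% antisense only, against 43.0 and 5.43% of members. Among the members, 90 matched a single gene and 48 matched 2 or more genes, up to 51, so their gene of origin is uncertain. Each member was put in a single class, in a fixed order that began with structural RNAs.

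The 120 unmatched members made up most of what was kept. They held 0.205 and 0.0904% of reads at E13.5 and 0.129 and 0.124% at E15.5, and 85 and 32 of them reached 10 counts in the 2 E15.5 libraries. They made up 30 of the 41 members at 10 or more in both. The 96 members in protein-coding transcripts held 0.191 and 0.0611% at E13.5, and 0.0420 and 0.0635% at E15.5, where 43 and 7 reached 10 counts, with 5 in both. Of the 99 members under 10 counts in both E15.5 libraries, 51 were of this class and 33 unmatched. The 14 members in other noncoding transcripts reached 10 counts in 10 and 4 cases, and the 8 antisense members outside ribosomal RNA in 6 and 2. No test was made across members, which come from the same libraries and partly from the same transcripts.

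By the middle base of the match, 45 of the 96 members in protein-coding transcripts lay in coding sequence, 35 in a 3′UTR, 11 in a 5′UTR and 5 in more than 1 of these among isoforms. In the later set 31 of 170 lay in coding sequence and 108 in a 3′UTR. The transcript base just before the 5′ end of sense members was C in 45.4% and G in 1.85% of 108, against 34.2 and 7.00% of 357 in the later set. The base just after the 3′ end was U in 34.0% of 106 members and in 20.7% of 358 later sequences.

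Several mRNAs matched more than 1 member. Eef1g, a subunit of translation elongation factor 1, matched 7 members with 6 different 5′ ends, all in the coding sequence and all shared with the processed pseudogene Gm4366. The one with the highest E13.5 share was TgataaagaTggctggtccctgtggta, at chr19:8977402-8977428 on the plus strand. It had 505 and 284 counts at E13.5 and 48 and 1804 at E15.5, and it made all the Eef1g member reads in E15.5 replicate 2. Of these 7 members, 5 also matched the processed pseudogene Gm5525 and 4 the processed pseudogene AC124459.1. Eef2, the translocation factor of the ribosome, matched 4 members, with 1579 and 388 reads at E13.5 and 178 and 0 at E15.5. Fth1, the ferritin heavy chain, matched 6 members, 3 in the 5′UTR and 3 in coding sequence, with 1254 and 1099 reads at E13.5 and 421 and 0 at E15.5.

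In Eif4ebp2, Pou2f1, Abl2 and D10Wsu102e the members lay in the 3′UTR. Eif4ebp2, which encodes a repressor of cap-dependent translation, matched 6 members with 1485 and 839 reads at E13.5 and 454 and 2 at E15.5. Pou2f1, the transcription factor Oct-1, matched 5 with 1223 and 336 reads at E13.5 and 182 and 0 at E15.5. Abl2, a tyrosine kinase, matched 4 with 1102 and 349 at E13.5 and 0 and 1023 at E15.5. D10Wsu102e matched 4 with 488 and 476 at E13.5 and 129 and 2403 at E15.5. The lincRNA AU020206 matched 7 members with 5 different 5′ ends, with 1193 and 1083 reads at E13.5 and 163 and 2129 at E15.5. For each of these genes the reads of the 2 E15.5 libraries lay far apart.

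Other 5′-U sequences of 26 to 29 nt from these transcripts were likewise nearly absent at E12.5 and in SGET. Non-members in the sense of D10Wsu102e took 2.69e-05 and 0.000257% of reads (E12.5), 0.108 and 0.138% (E13.5), 0.731 and 0.734% (E15.5), and 0.00246 and 4.20e-05% (SGET). Its E13.5 libraries held 63 and 338 such sequences with 10 or more counts, and the 4 members are the sequences of this mRNA that reached 10 in both with none at E12.5. Non-members of Eif4ebp2 took 0.00101 and 2.20e-05% (E12.5), 0.0214 and 0.0328% (E13.5), 0.0449 and 0.0632% (E15.5), and 0 in both SGET libraries. For Eef1g these were 0 and 3.67e-05% (E12.5), 0.0146 and 0.0240% (E13.5), 0.0179 and 0.00219% (E15.5), and 0 in SGET. For D10Wsu102e and Eif4ebp2 the E15.5 values lay above the E13.5 values, and for Eef1g the groups overlapped. The non-members of Eef2, Fth1, Pou2f1, Abl2 and AU020206 overlapped between E13.5 and E15.5 as well.

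Some members matched structural RNAs. On chromosome 17, 14 members matched a locus with the lincRNA Gm42418 on the plus strand (39846958 to 39848788) and, on the minus strand, the rRNA-annotated CT010467.1 and the lincRNA AY036118. By the annotated strands, all 14 were antisense to CT010467.1 and 8 were sense to Gm42418. Whether the rRNA itself is transcribed from the strand annotated for CT010467.1 was not checked, so these members are not shown to be antisense to rRNA. They held 0.0328 and 0.0137% of reads (E13.5), 0.0110 and 0.00210% (E15.5), and 0.00543 and 0% (SGET). Other 5′-U reads of 26 to 29 nt antisense to CT010467.1 were present in every library, from 0.0462 to 0.0689%, including 0.0495 and 0.0484% at E12.5. The members of this locus were thus new as exact sequences at a locus already covered at E12.5.

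Of the remaining structural matches, 2 members matched 5S rRNA genes. One, printed above, also matched 2 genes annotated as miRNAs, Gm47285 and Gm47301. Another 2 matched snoRNA genes, Gm24453 and Gm22744, both within Snhg1. They had 93 and 97, and 105 and 55 counts at E13.5, and none at E15.5 or in SGET. A member of the Mir182 hairpin had 631 and 44 counts at E13.5 and 1 in each E15.5 library. It was the annotated 25-nt miR-182-5p with 3 further hairpin bases. Another member begins with the same 25 bases but ends in bases that match no transcript, and is counted as unmatched. The annotated miR-182-5p itself had 68432 and 239400 counts at E12.5, so only longer 3′ forms of it met the rule. A member of the Mir1983 hairpin, outside the annotated mature miRNA, had 249 and 149 counts at E13.5 and none at E15.5 or in SGET.

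Antisense matches outside the ribosomal locus were few. Of the 8 members with no sense match, 2 were antisense to Gm43197, an unconfirmed transcript on chromosome 6, with 269 and 326 reads at E13.5 and 155 and 0 at E15.5. Another 2 members matched the strand opposite to Gm47398 on chromosome 10 as well as other transcripts, with 297 and 418 reads at E13.5 and 92 and 0 at E15.5. For both genes all member reads at E15.5 came from replicate 1.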

How the data were processed

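Small RNA libraries of 4 groups were analysed, 2 libraries each. The authors trimmed adapters and the 4 random bases at each end with cutadapt 3.2, aligned whole reads to GRCm38 in STAR 2.5.3a (up to 2 mismatches and 100 places, 1 random place each) and deposited, for every different sequence, its raw count with no normalization. The random bases were not used as molecular identifiers, so counts include PCR copies. Reads can also carry mismatches to the genome. Libraries held 7447873 to 26552524 counts, and 3 counts correspond to 1.13e-05 to 4.03e-05% of a library.

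Members were found by exact sequence. A share is the percent of all counts of a library, and 10 or more counts was used as the level of firm detection. Exact matches were sought on both strands of GENCODE M21 transcripts. Coding ranges came from its annotation and mature miRNAs from RefSeq (GRCm38.p6). Repeats, nuclear tRNA annotation and the genome sequence were not used here. Sequences were tested between E15.5 and SGET with edgeR 4.0.16 in R 4.3.3 (quasi-likelihood test, total counts as library size, default filter, Benjamini-Hochberg over all sequences tested), with DESeq2 1.42.0 as an alternative and a test on simulated data. Python 3.11.15, pandas 2.3.3, numpy 2.4.6 and scipy 1.17.1 were used.

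Groups and replicate numbers come from the sample titles. The members, the comparison sets and the marker lists were chosen with earlier results of these data known. Sequences were printed by a rule: the 6 members with the highest mean share at E13.5 and at E15.5, those with most counts in SGET, the leading member of each of the 5 genes with most 5′ ends, and the largest group sharing its first 20 bases. Genes named are the up to 12 with most 5′ ends in each orientation, and all structural RNA and miRNA genes. Same-numbered libraries of E15.5 and SGET deviated together at a correlation of only 0.0942 and come from different animals and cultures, so the numbers do not pair them. Alternatives to the count minimum, length range, first base, depth, detection level, denominator, match length, normalization, filter, test and replicates were tried.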

Additional observations from a re-analysis of the deposited data

How the results depend on the processing

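Of 103 recomputed values, 52 stayed within 1.5 times the reported count or within its interval or SD. The number of members was 253 to 331 with other count minima, lengths, first bases or thinning. It was 238 without the rRNA, miRNA and snoRNA matches, an alternative chosen after seeing the data. Without 1 library it was 267 to 16241, since a rule on E13.5 replicate 2 alone gave 16241 and on replicate 1 alone 2420. The percent counted in both E15.5 libraries (22.5) became 16.3 at 3 counts, 15.9 at 10 counts, 48.8 when any read of 24 to 33 nt with the same first 20 bases counted, and 2.39 to 60.9 without 1 library. The percent in either SGET library (4.26) became 1.16 at 3 or 10 counts, 10.5 by the first 20 bases, and 0.382 to 7.49 without 1 library. The summed share at E15.5 was 0.238% of 20 to 33 nt reads and 0.425% of 5′-U reads of 26 to 29 nt, and that in SGET 0.23% of the latter. Without replicate 1 the SGET share was 3.15e-05%, and without replicate 2 0.00709%. Transcript matches, A at position 10 and the number of 5′ ends stayed within these limits in every alternative run.

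In the comparison of E15.5 with SGET (110 higher, 495 lower, 5 members higher), TMM gave 0, 0 and 0, DESeq2 2706, 1351 and 40, all 8 libraries in 1 fit 7, 67 and 0, a filter of 10 counts in any library 0, 6 and 0, and a filter of 2 counts in all 0, 1 and 0. Sums over the first 20 bases gave 563 higher, 532 lower and 27 member ends higher. Leaving out 1 library gave 0 to 1 higher, 0 to 112 lower and 0 members, with the lone sample assumed to vary like the other group. With the replicate block there were 1 higher, 56 lower and 0 members. The cause of these changes was not tested. The share of members with 1 genomic copy was not run, because no genome sequence was used here. With a common dispersion of 3.72 and 2 libraries a group, single sequences are poorly resolved.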
